A study of Mus musculus with 6 samples.

Results

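The genes described here are the Hox genes of the Hoxa, Hoxb, Hoxc and Hoxd clusters, taken as every probe set whose single annotated symbol is Hox, a cluster letter and a number. A probe set is a group of short array probes for 1 transcript, and 48 of the 45037 non-control probe sets on the arrays met this rule. They stand for 33 of the 18193 genes named on the arrays, and of the 39 genes of this name in RefSeq, 9 in Hoxa, 9 in Hoxb, 7 in Hoxc and 8 in Hoxd. The remaining genes of this name are not analysed here, and 3 probe sets annotated to a pair of Hox genes were not used. No filter on level was applied, so that every member was tested.

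Hox genes encode transcription factors that bind DNA through a homeodomain. In the embryo they are switched on in the order in which they lie along each cluster, so that low-numbered (3 prime) genes mark anterior and high-numbered (5 prime) genes mark posterior parts of the body axis and limb. Genes that share a number in different clusters are paralogs, copies of 1 ancestral gene. Fibroblasts keep in culture much of the Hox pattern of the body part from which they came, held by Polycomb proteins, which silence the clusters, and by Trithorax or MLL proteins, which keep them active.

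Total RNA was measured on 6 Affymetrix arrays. The cells were immortalized fibroblasts from mouse embryos (MEFs), which are connective tissue cells in culture. There were 3 arrays of PCAF-/-;GCN5-/- cells and 3 of PCAF-/-;GCN5+/- cells, so all cells lacked PCAF (gene Kat2b) and the genotypes differed in GCN5 (gene Kat2a), a related histone acetyltransferase. Each genotype had a pair of RNAs from line A (arrays A1 and A2) and 1 RNA from line B (array B), and the lines were immortalized independently. The cells carried a conditional GCN5 allele and were infected with a retrovirus holding Cre recombinase or only its vector, then selected with puromycin. No array label names the virus. The study design does not assign it clearly, so GCN5-/- was read as Cre and GCN5+/- as vector. Virus and genotype then cannot be told apart. The sources used here give neither the embryos' age nor the body region from which each line came. There is 1 line A and 1 line B, and the spread behind the p-values is partly that between duplicate RNAs.

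The median log2 signal of the arrays lay between 7.40 and 7.45. The control ratio of 3 prime to 5 prime signal, a sign of RNA quality, was 0.09 to 0.11 for beta-actin in GCN5-/- arrays and 0.07 to 0.12 in GCN5+/- arrays on the log2 scale. Kat2a probe set 1422972_s_at read 7.97, 7.85 and 7.75 in GCN5-/- arrays A1, A2 and B, against 9.31, 10.07 and 11.51 in GCN5+/- arrays (log2 difference -2.44 ± 0.36, SE; limma adjusted p = 0.00823). Probe set 1422971_at was also lower (-0.75 ± 0.13; limma adjusted p = 0.0190) and 1426783_at was not called (0.18 ± 0.16; limma adjusted p = 0.670). Where these lie relative to the deleted part was not analysed here. The 3 Kat2b probe sets read 4.73 to 7.30 over all arrays. The fibroblast markers Col1a1, Col1a2, Col3a1, Vim and Fn1 each had a probe set at a log2 signal of 13.95 or more on every array. The fibroblast list also holds Thy1, which lay below the 40th percentile of all probe sets on every line A array. Thy1 and Pdgfra differed between the lines in opposite directions, as given below. Of the leukocyte markers, no value of Ptprc was above 4.75, Adgre1 read 6.03 to 6.36, Cd68 6.67 to 8.05 and the brighter Cd53 probe set 8.44 to 10.54, the last of these above the 40th percentile of all probe sets on every array. Of the epithelial, endothelial, neural and skeletal muscle marker probe sets, 0 of 8, 0 of 5, 1 of 12 (Sox2, lower) and 0 of 6 were called between genotypes. Between the lines, in the same order, 1 higher, 0, 1 higher with 2 lower, and 0 were called.

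Most Hox genes with high numbers had low signals. Signals of different probe sets are not on a common scale, so levels were only set against a mark, the 40th percentile of all probe sets' mean log2 signal (6.80). It is not a detection call. Of the 48 Hox probe sets, 28 had a mean at or above it, against 60% of all probe sets by construction. These were 27 of 36 probe sets of paralogs 1 to 9 and 1 of 12 of paralogs 10 to 13. By cluster they were 9 of 16 in Hoxa, 8 of 11 in Hoxb, 9 of 11 in Hoxc and 2 of 10 in Hoxd. Single values ran from 3.96, at Hoxd10, to 12.95, at Hoxc8. Hoxd members were low as a cluster: Hoxd9 averaged 6.91 and the brighter Hoxd13 probe set 6.84, and the other 8 averaged 5.87 or less.

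**Figure D1:**
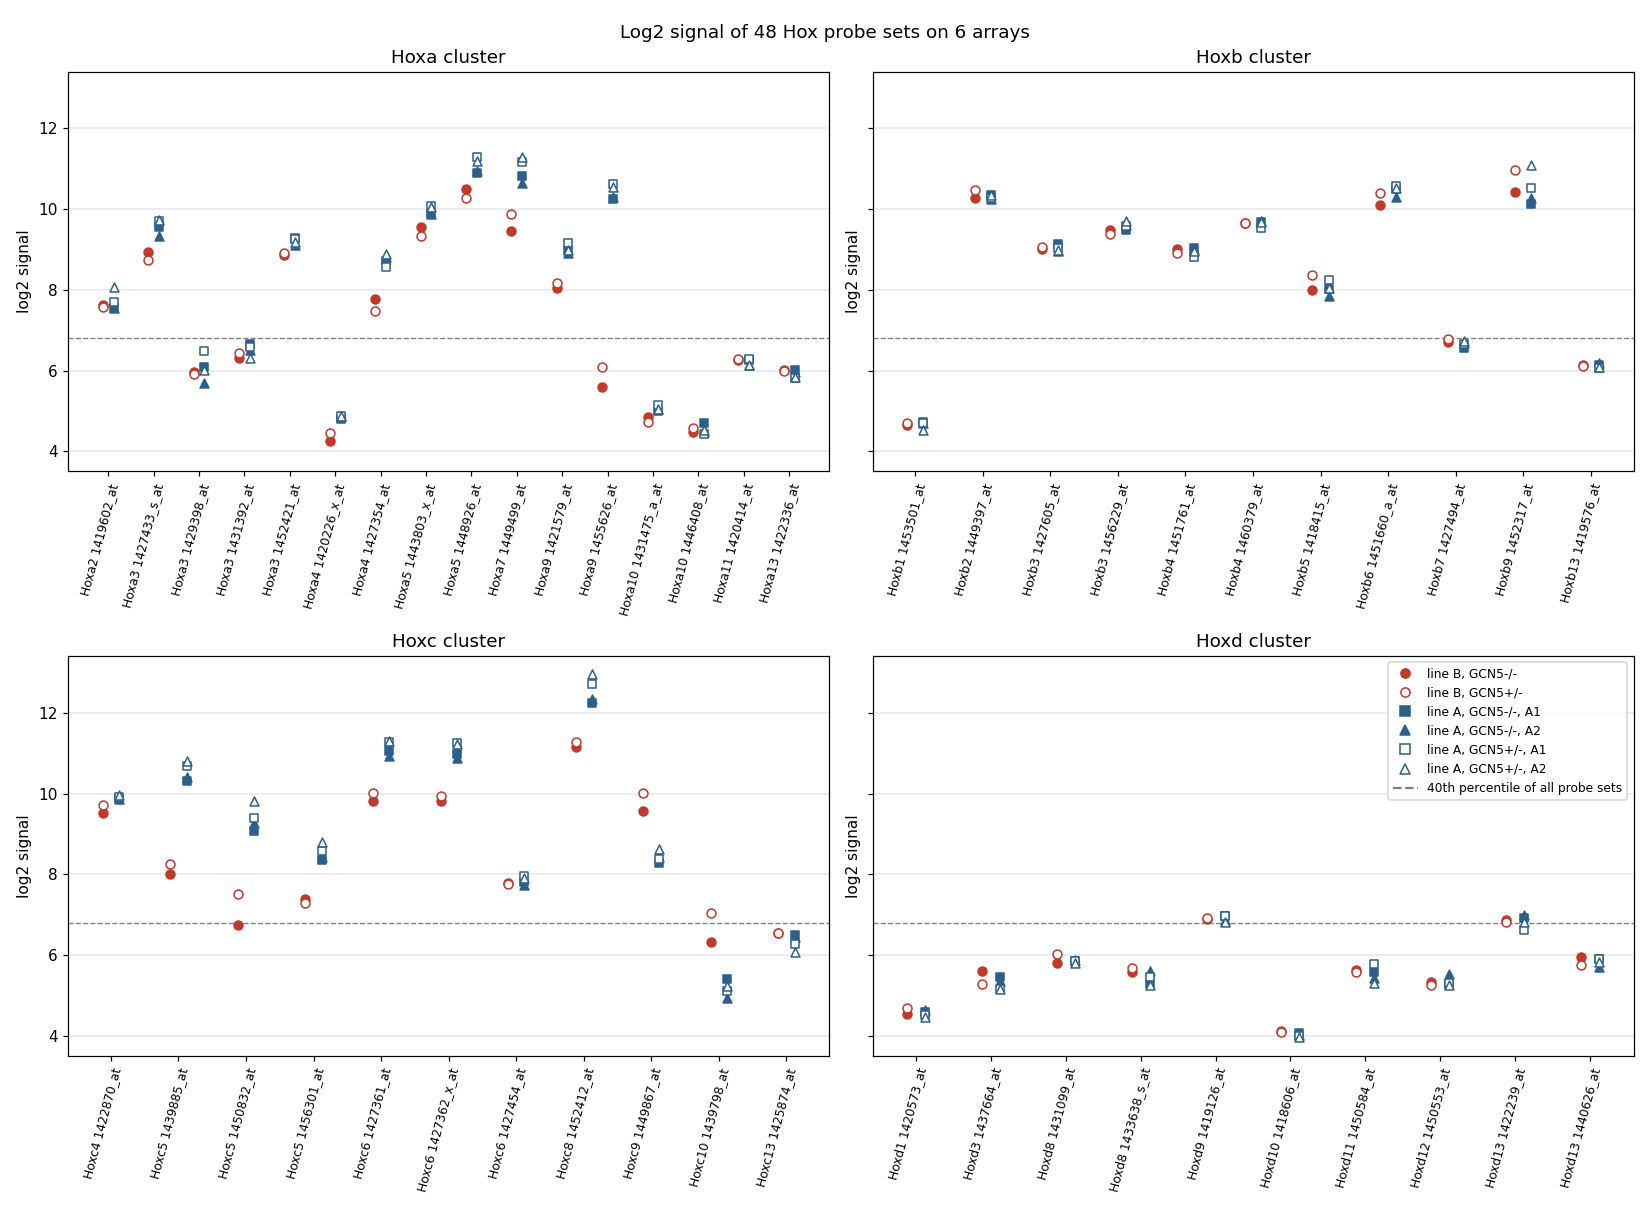
Log2 signal (vertical axis) of the 48 Hox probe sets on the 6 arrays, by cluster and rising gene number (horizontal axis). Red circles are line B and blue squares and triangles line A, with filled symbols for GCN5-/- and open symbols for GCN5+/-; the dashed line is the 40th percentile mark of 6.80. Red and blue separate at several Hoxa and Hoxc probe sets, and 8 of 10 Hoxd probe sets have a mean below the mark.

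The promoter sequences of 3 members are shown because they stand for the main patterns below: Hoxa9 had the largest fitted difference between the lines, Hoxa7 was called both between lines and between genotypes, and Hoxb4 was called in neither. Each is the RefSeq sequence of GRCm38.p6 from 250 bases before to 50 after the gene's start, with every CG in capitals. CG is the step along the strand at which mouse DNA is methylated. Hoxa9 lies at chr6:52227321-52227620 on the minus strand, Hoxa7 at chr6:52218524-52218823 on the minus strand and Hoxb4 at chr11:96318017-96318316 on the plus strand.
Hoxa9: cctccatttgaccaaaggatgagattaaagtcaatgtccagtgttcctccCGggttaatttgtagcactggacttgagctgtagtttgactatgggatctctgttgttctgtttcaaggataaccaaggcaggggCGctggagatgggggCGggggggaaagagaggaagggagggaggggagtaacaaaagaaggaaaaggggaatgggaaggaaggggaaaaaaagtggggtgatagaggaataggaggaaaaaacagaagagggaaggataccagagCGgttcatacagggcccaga
Hoxa7: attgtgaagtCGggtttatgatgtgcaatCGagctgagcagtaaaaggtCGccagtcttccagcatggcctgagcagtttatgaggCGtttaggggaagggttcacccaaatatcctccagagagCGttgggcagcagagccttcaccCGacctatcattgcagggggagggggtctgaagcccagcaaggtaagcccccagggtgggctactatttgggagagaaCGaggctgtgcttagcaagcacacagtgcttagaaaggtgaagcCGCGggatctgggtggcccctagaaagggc
Hoxb4: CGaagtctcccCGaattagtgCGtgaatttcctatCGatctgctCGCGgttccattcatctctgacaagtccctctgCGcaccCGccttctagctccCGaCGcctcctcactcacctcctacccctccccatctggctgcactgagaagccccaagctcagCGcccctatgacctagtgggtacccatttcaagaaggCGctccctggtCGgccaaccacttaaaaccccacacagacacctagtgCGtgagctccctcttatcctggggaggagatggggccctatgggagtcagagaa

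The Hoxa9 promoter holds 4 CG steps, that of Hoxa7 9 and that of Hoxb4 14. The table gave 21 promoters for 19 of the 33 Hox genes, with 4 to 45 CG steps and a median of 15, against a median of 7 over all 32851 promoters. They are mostly of Hoxa and Hoxd: only Hoxb1 and Hoxb4 of Hoxb and only Hoxc4 of Hoxc had one. No Hoxc gene called between the lines is among them. The observed over expected ratio of CG was 0.596 at the median of the Hox promoters and 0.384 over all. TAAT, the core of most homeodomain sites, was searched on both strands. It occurs 2 times in the Hoxa9 promoter, 0 times in that of Hoxa7 and 1 time in that of Hoxb4. It was found in 17 of the 21 Hox promoters and in 58% of all promoters. TGATNNAT, a form of the joint site of Hox and PBX proteins that can overlap TAAT, is in none of the 3 and was found on either strand in 3 of the 21 Hox promoters and 8.85% of all. These matches describe the letters of the windows and say nothing of binding.

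Between the lines, all measured Hoxa genes from Hoxa3 to Hoxa9 and Hoxc5, Hoxc6 and Hoxc8 had a probe set called lower in line B. Not every probe set of Hoxa3 and Hoxc6 was called. Hoxc9 and Hoxc10 were higher in line B, and no Hoxb or Hoxd probe set was called. Of the 48 probe sets, 16 were called (33.3%), against 14.1% of all probe sets, by limma with Benjamini-Hochberg adjustment over all 45037 at an adjusted p under 0.05. Lower in line B were 14 probe sets of 8 genes, where 6.89% of all probe sets were lower, and higher were 2, where 7.24% of all were higher. At least a 2-fold difference was called at 9 lower probe sets (1.80% of all) and 2 higher ones (0.941% of all). The median log2 difference was -0.42 over Hoxa, -1.20 over Hoxc, 0.01 over Hoxb and 0.07 over Hoxd, against 0.03 over all probe sets. All 16 had both line B arrays outside the range of the 4 line A arrays. All 16 had the same sign within GCN5-/- and within GCN5+/- arrays. The 16 were selected on these same arrays, so this describes the calls and is no separate support for them. Over all probe sets, 12.8% had both line B arrays below and 17.2% above all line A arrays. Of the Hox probe sets, called or not, these were 17 (35.4%) and 4 (8.33%). The test describes these lines and not lines in general.

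**Figure D2:**
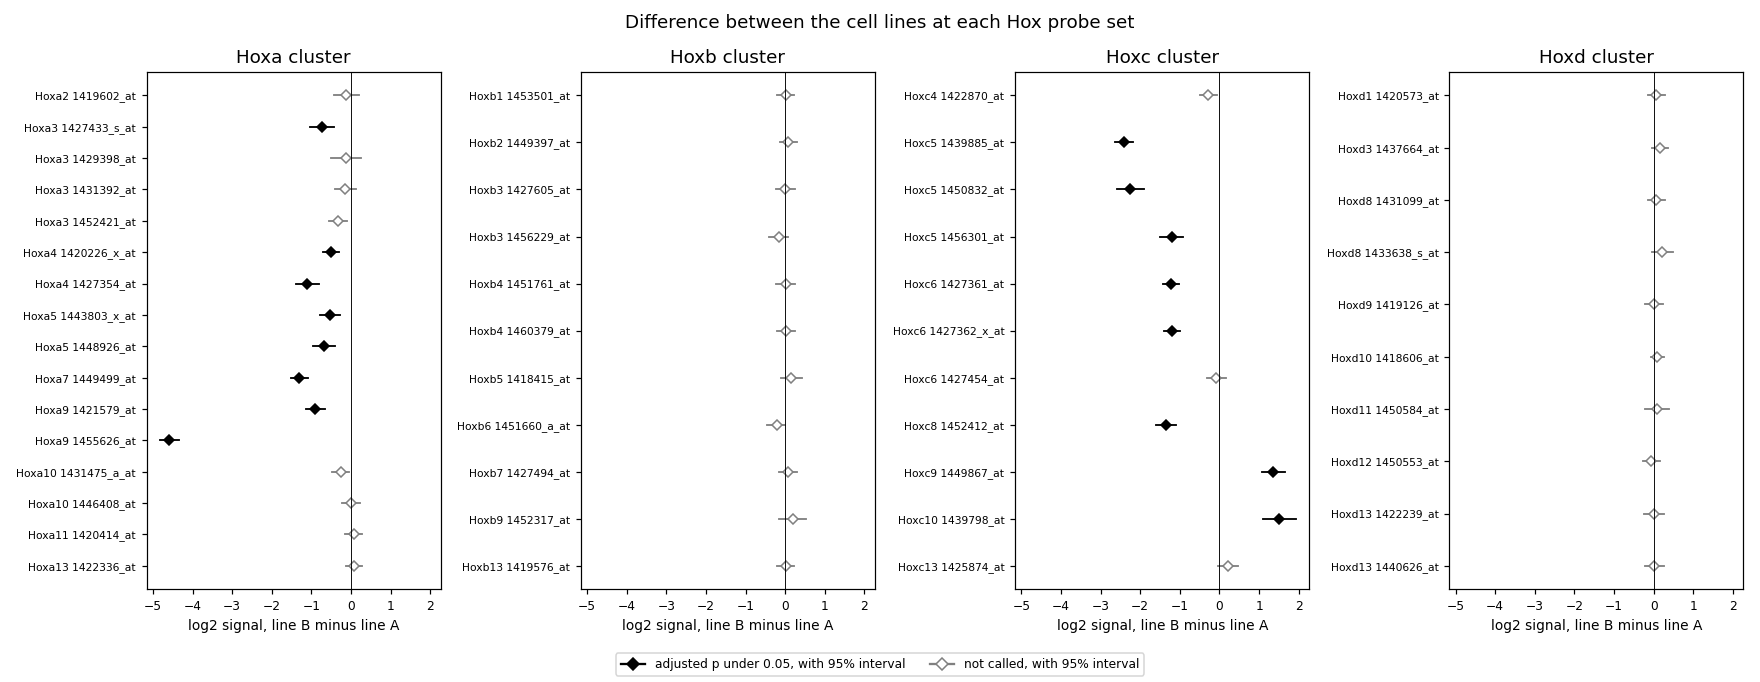
Log2 signal of line B minus line A at each Hox probe set (horizontal axis), by cluster, with genes in rising number from top to bottom. Diamonds are the fitted differences and lines their 95% intervals, black where the limma adjusted p was under 0.05. The 14 lower calls lie in Hoxa and Hoxc, the 2 higher calls are Hoxc9 and Hoxc10, and all 21 Hoxb and Hoxd intervals lie between -0.45 and 0.53.

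Hoxa9, a regulator of blood progenitors and posterior axial identity, had the largest fitted difference of the members. Its probe set 1455626_at read 5.59 and 6.09 in line B (GCN5-/- and GCN5+/-), against 10.25 and 10.29 in GCN5-/- and 10.63 and 10.55 in GCN5+/- arrays of line A. Line B lay below the 40th percentile mark and line A well above it. The log2 difference was -4.59 ± 0.10 (SE; limma adjusted p = 1.06e-07). As line B was dim here and the arrays carry no detection call, no fold is given and the fitted size may understate the difference. The other Hoxa9 probe set, 1421579_at, read 8.05 and 8.18 in line B and 8.91 to 9.16 in line A, a difference of -0.90 ± 0.11 (limma adjusted p = 0.000741). The pair has the same direction and a very different size. Which transcripts each detects was not analysed here.

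Hoxa7, which lies next to Hoxa9 and is a known target of MLL, read 9.47 and 9.88 in line B, against 10.83 and 10.65 in GCN5-/- and 11.16 and 11.29 in GCN5+/- arrays of line A. The difference of -1.31 ± 0.10 (SE; limma adjusted p = 4.45e-05) is 2.47-fold. Hoxa5, needed for lung and lower neck development, read 10.50 and 10.28 in line B and 10.90 to 11.28 in line A at 1448926_at (-0.69 ± 0.12; limma adjusted p = 0.00606). Its other probe set, 1443803_x_at, differed by -0.53 ± 0.11 (limma adjusted p = 0.0155). Both Hoxa5 calls were lost without the GCN5+/- array of line B (adjusted p = 0.0682 and 0.242).

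Hoxa4, which acts in the neck vertebrae, read 7.78 and 7.49 in line B and 8.56 to 8.88 in line A at 1427354_at (-1.11 ± 0.13, SE; limma adjusted p = 0.000620). At its dim probe set 1420226_x_at the difference was -0.51 ± 0.09 (limma adjusted p = 0.00470), and 0.0771 was the adjusted p without the GCN5-/- array of line B. Hoxa3, which acts in thymus and parathyroid formation, has 4 probe sets, of which only 1427433_s_at was called, with 8.94 and 8.74 in line B and 9.34 to 9.74 in line A (-0.74 ± 0.13; limma adjusted p = 0.00614). It was not called without the GCN5+/- array of line B (adjusted p = 0.110). The other 3 Hoxa3 probe sets differed by -0.33, -0.14 and -0.12. In RefSeq the Hoxa3 gene spans Hoxa4 and Hoxa5, and a suffix of _s_at or _x_at marks probes that may bind several transcripts, so these values may mix transcripts.

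Upstream and downstream of this run in Hoxa no call was made. Hoxa2, of the hindbrain and second pharyngeal arch, read 7.62 and 7.57 in line B and 7.55 to 8.06 in line A, and the lines overlapped. The Hoxa10, Hoxa11 and Hoxa13 probe sets, of the lower trunk and limb, lay between 4.43 and 6.29 on every array and differed by -0.26 to 0.08. Over the 8 uncalled Hoxa probe sets the 95% intervals lay between -0.56 and 0.29.

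In the Hoxc cluster the direction turned between neighbouring genes. Hoxc5, of the neck and forelimb level, read 8.02 and 8.26 in line B, against 10.32 and 10.41 in GCN5-/- and 10.68 and 10.80 in GCN5+/- arrays of line A at 1439885_at. That is a difference of -2.41 ± 0.10 (SE; 5.31-fold lower; limma adjusted p = 1.77e-06). The other Hoxc5 probe sets differed by -2.25 ± 0.15 and -1.21 ± 0.13 (limma adjusted p = 2.46e-05 and 0.000372), so all 3 were lower in line B. Hoxc6, of the upper thorax and forelimb, was lower at 2 of 3 probe sets. At 1427361_at it read 9.81 and 10.01 in line B and 10.92 to 11.31 in line A (-1.23 ± 0.09; limma adjusted p = 3.93e-05), at 1427362_x_at the difference was -1.20 ± 0.09, and at 1427454_at -0.08 ± 0.11 (limma adjusted p = 0.735).

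Hoxc8, which patterns thoracic vertebrae and ribs, read 11.15 and 11.27 in line B, against 12.24 and 12.33 in GCN5-/- and 12.72 and 12.95 in GCN5+/- arrays of line A (-1.35 ± 0.11, SE; limma adjusted p = 7.80e-05). Hoxc9, the next gene toward the 5 prime end and also a thoracic gene, ran the other way. It read 9.57 and 10.02 in line B, against 8.28 and 8.43 in GCN5-/- and 8.38 and 8.64 in GCN5+/- arrays of line A (1.36 ± 0.13; 2.57-fold higher; limma adjusted p = 0.000179). Hoxc10, of the lumbar region and hindlimb, read 6.33 and 7.05 in line B, against 5.42 and 4.95 in GCN5-/- and 5.10 and 5.24 in GCN5+/- arrays of line A (1.51 ± 0.18; limma adjusted p = 0.000775). Its mean over all arrays was below the 40th percentile mark. The outer Hoxc genes measured were not called: Hoxc4 differed by -0.28 ± 0.09 (limma adjusted p = 0.0909) and Hoxc13, a hair follicle gene, by 0.22 ± 0.11 (limma adjusted p = 0.286).

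**Figure D3:**
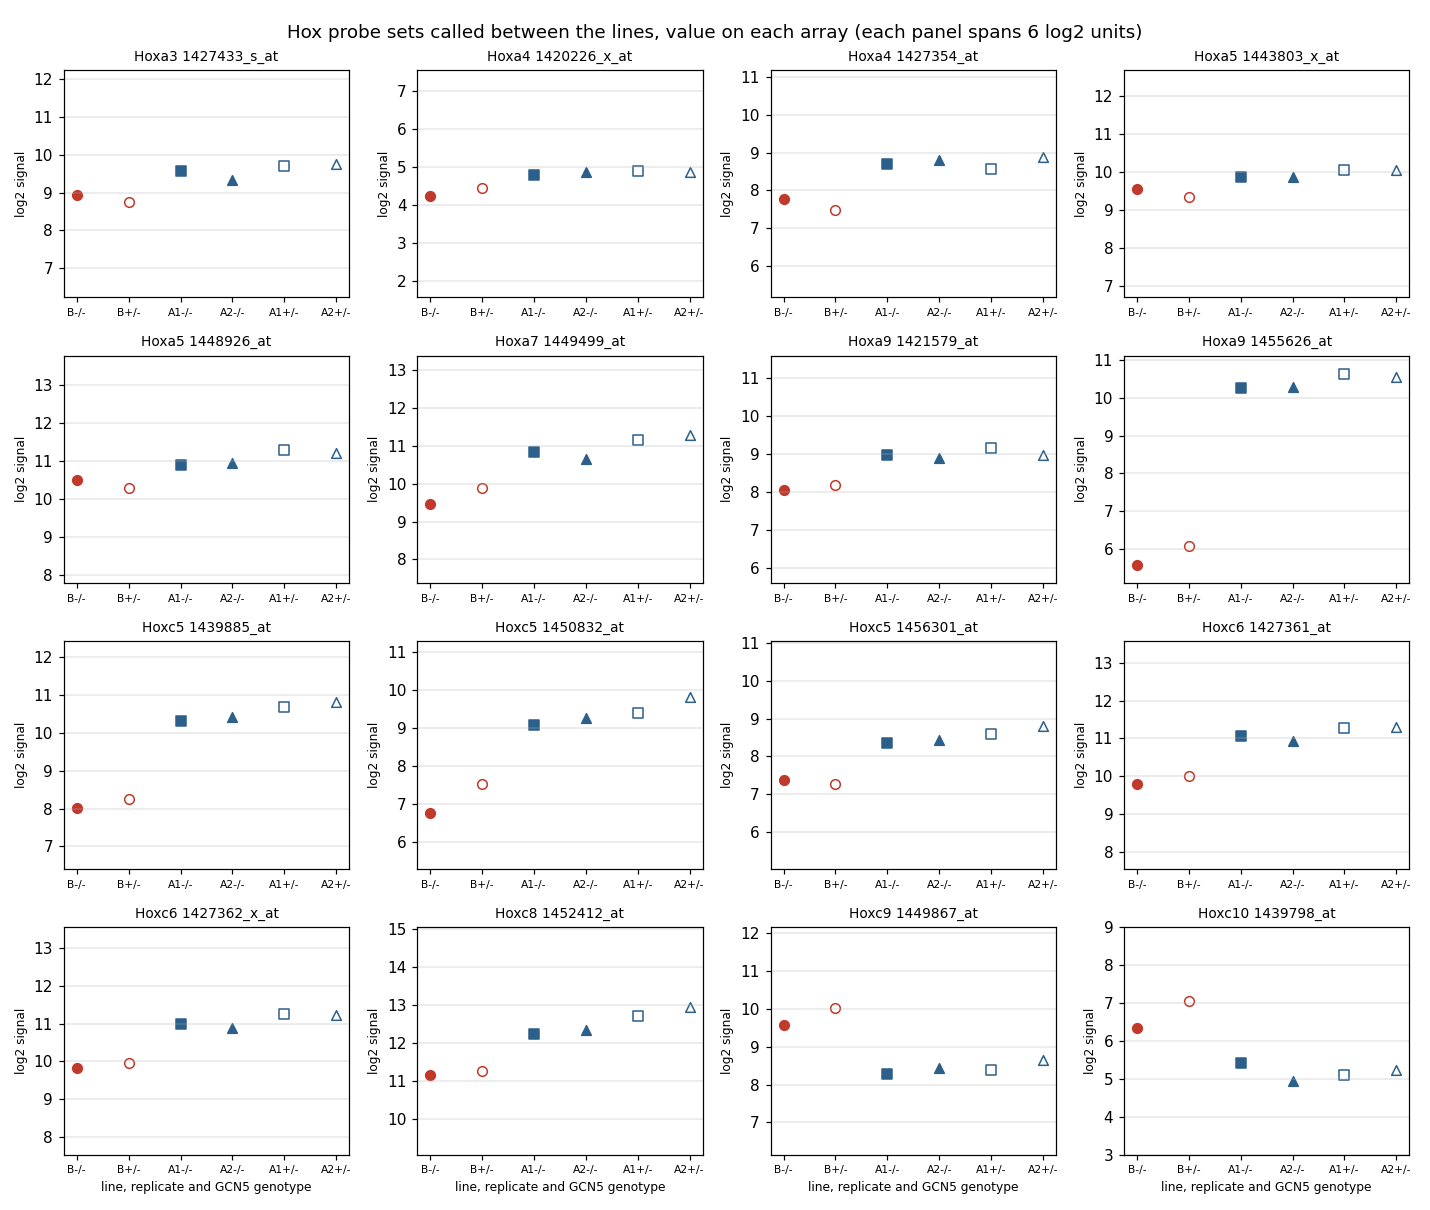
Log2 signal (vertical axis, 6 log2 units in each panel) on each array (horizontal axis) of the 16 Hox probe sets called between the lines. Red circles are the line B arrays and blue symbols the line A arrays, filled for GCN5-/- and open for GCN5+/-. Line B lies below line A in 14 panels and above it in those of Hoxc9 and Hoxc10.

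Paralogs in Hoxb and Hoxd did not give calls beside those in Hoxa and Hoxc. Hoxb4, which can expand blood stem cells, read 9.01 and 8.91 in line B and 8.81 to 9.03 in line A at 1451761_at, and 9.66 in both line B arrays against 9.54 to 9.70 in line A at 1460379_at; the lines overlapped at both. Hoxb9, a thoracic gene, read 10.42 and 10.97 in line B and 10.13 to 11.09 in line A, a difference of 0.19 ± 0.15 (SE; limma adjusted p = 0.502). The 11 Hoxb differences ran from -0.22, at Hoxb6, to 0.19, with 95% intervals between -0.45 and 0.53, so differences of the size seen at Hoxa7 or Hoxc8 lay outside all of them. The 10 Hoxd differences ran from -0.06 to 0.22, with intervals between -0.28 and 0.50. Of these 10, 8 had a mean below the 40th percentile mark, so the intervals are mostly those of dim probe sets. Among paralogs numbered 9, Hoxa9 was lower, Hoxc9 was higher, and Hoxb9 and Hoxd9 (0.00 ± 0.10; limma adjusted p = 0.998) were not called. Whether clusters differed from each other was not tested.

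Lists of genes that act with or on Hox genes were counted in the same way, against the 14.1% of all probe sets called between the lines (7.24% higher and 6.89% lower). Of the TALE cofactors, the PBX, MEIS and PREP proteins that bind DNA beside Hox proteins, 5 of 20 probe sets were lower in line B and 0 higher, with a median log2 difference of 0.01 against 0.03 over all probe sets. Meis1 read 9.44 and 9.62 in line B and 10.31 to 10.98 in line A at 1450992_a_at (-1.06 ± 0.12, SE; limma adjusted p = 0.000475). Pknox2 read 8.76 and 8.36 in line B and 9.91 to 10.20 in line A at 1433907_at (-1.52 ± 0.13; limma adjusted p = 0.000119). Pbx3 was lower at 1 probe set (-0.39 ± 0.11; limma adjusted p = 0.0479).

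Among Trithorax and MLL genes 5 of 24 probe sets were higher in line B and 0 lower, with a median of 0.16. Ash2l, a shared subunit of MLL complexes, differed by 0.88 ± 0.08 (SE; limma adjusted p = 0.000136) at 1420616_at, and Men1 (menin, a partner of MLL) by 0.70 ± 0.09 (limma adjusted p = 0.00143) at 1416347_at. Among Polycomb genes 1 of 52 probe sets was higher and 2 lower, with a median of -0.05, led by Rbbp4 (-0.27 ± 0.06; limma adjusted p = 0.0174), Cbx7 (-0.48 ± 0.13; limma adjusted p = 0.0368) and Phc2 (0.29 ± 0.08; limma adjusted p = 0.0388).

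Genes upstream of Hox, mainly of retinoic acid signalling, had 2 higher and 2 lower of 19, with a median of -0.04. Rarb, a retinoic acid receptor that is itself a retinoic acid target, read 10.44 and 10.00 in line B and 7.37 to 8.81 in line A (2.04 ± 0.35, SE; limma adjusted p = 0.00527). Crabp2, a retinoic acid carrier, differed by 1.25 ± 0.22 (limma adjusted p = 0.00598). Cyp26b1, which degrades retinoic acid, read 7.41 and 7.15 in line B and 8.25 to 9.03 in line A (-1.45 ± 0.20; limma adjusted p = 0.00192). Rxra, the partner receptor, differed by -0.57 ± 0.09 (limma adjusted p = 0.00434). Of genes that flank the Hox clusters, 1 of 25 probe sets was called, Snx10 near Hoxa (-0.31 ± 0.08; limma adjusted p = 0.0300).

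Markers of fibroblasts moved between the lines as well. Of 21 fibroblast marker probe sets, 1 was higher in line B and 8 were lower, where 7.24% of all probe sets were higher and 6.89% lower. Thy1 read 8.60 and 9.54 in line B and 6.02 to 6.21 in line A (2.95 ± 0.19, SE; limma adjusted p = 2.14e-05), and Pdgfra read 10.52 and 10.84 in line B and 12.04 to 13.01 in line A at 1421917_at (-1.91 ± 0.14; limma adjusted p = 3.91e-05). The log2 of the summed signal of the fibroblast list was 17.49 and 17.59 in line B and 17.54 to 17.80 in line A. Of 6 leukocyte marker probe sets, Cd53 was lower and Cd68 higher in line B, and the log2 sum was 10.06 and 9.43 in line B and 10.05 to 10.82 in line A. The part of these in the Hox differences was not tested. In bulk RNA, fewer cells with a transcript and less of it per cell cannot be told apart.

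Between genotypes, 1 of 48 Hox probe sets was called, Hoxa7, lower in GCN5-/- cells. This is 2.08% of the Hox probe sets, against 4.47% called over all probe sets (2.24% higher and 2.23% lower), a share that gives no result about Hox genes as a group. At an unadjusted p under 0.05 there were 9 lower and 1 higher of 48, against 9.08% lower and 8.44% higher over all probe sets (17.5% in either direction). The median log2 difference was -0.05 over the Hox probe sets, against 0.00 over all, and was -0.25 over Hoxc, -0.07 over Hoxa, -0.04 over Hoxb and 0.03 over Hoxd. At or above the 40th percentile mark, 23 of 28 Hox differences were below 0, against 13914 of 27022 over all probe sets there. The Hox median there was -0.13, against -0.01, and 9 had an unadjusted p under 0.05, against 6622 of 27022. Below the mark, 8 of 20 Hox differences were below 0, with a median of 0.03. GCN5-/- was lower in all 3 matched pairs at 15 probe sets (31.2%), against 20.6% of all probe sets, and higher in all 3 at 7 (14.6%), against 20.3% of all. No label says whether the A1 arrays of the genotypes share a culture. The replicate names pair the arrays by line, and with the replicate block 3 Hox probe sets were called, where 5.09% of all were called.

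**Figure D4:**
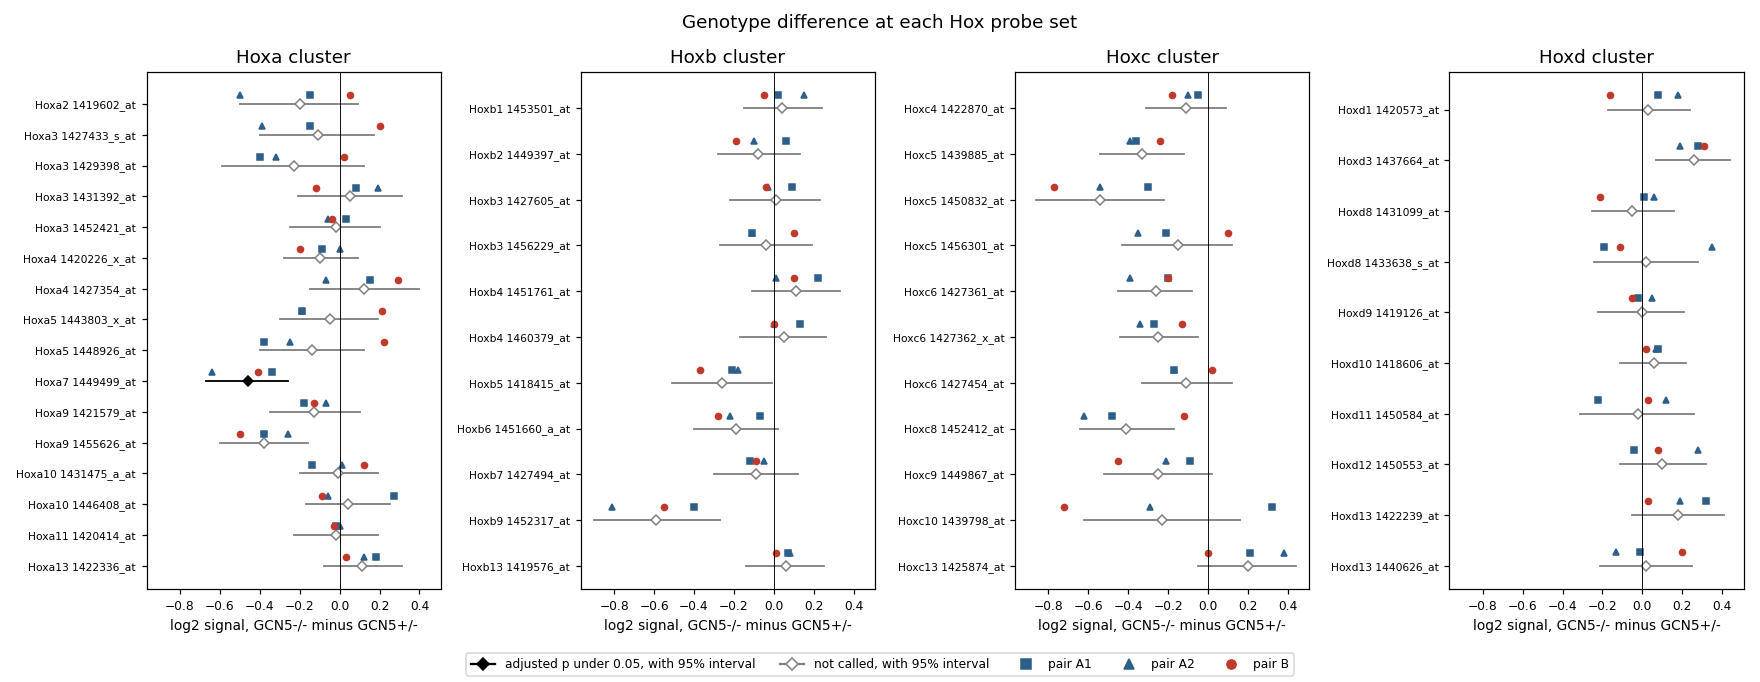
Log2 signal of GCN5-/- minus GCN5+/- at each Hox probe set (horizontal axis), by cluster, with genes in rising number from top to bottom. Diamonds with lines are the fitted differences and 95% intervals, black where called, and the small symbols above them are the matched pairs A1 (square), A2 (triangle) and B (circle). Hoxa7 is the single black diamond, and all fitted differences lie between -0.59 and 0.26.

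Hoxa7 read 10.83, 10.65 and 9.47 in GCN5-/- arrays A1, A2 and B, against 11.16, 11.29 and 9.88 in GCN5+/- arrays. Each line was lower in GCN5-/- cells, while the genotypes overlapped across lines because line B lay lower in both. The differences were -0.34, -0.64 and -0.41 in pairs A1, A2 and B, and the fit gave -0.46 ± 0.09 (SE; limma adjusted p = 0.0251). Leaving out any 1 line A array ended the call (GCN5-/- A1 0.0603, GCN5-/- A2 0.138, GCN5+/- A1 0.0801 and GCN5+/- A2 0.0949, as adjusted p), as did averaging the line A duplicates (adjusted p = 0.130). Over the 14 alternatives the adjusted p ran from 0.0206 to 0.870 and the difference from -0.51 to -0.41.

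Hoxb9 missed the threshold narrowly. It read 10.13, 10.28 and 10.42 in GCN5-/- arrays A1, A2 and B, against 10.53, 11.09 and 10.97 in GCN5+/- arrays, so that every GCN5-/- array lay below every GCN5+/- array. Over all probe sets 7.01% did so. The difference was -0.59 ± 0.14 (SE; 95% interval -0.90 to -0.27; limma adjusted p = 0.0526). It was called in 4 of 14 alternatives, with the level filter, quantile normalization, the replicate block (adjusted p = 0.0200) and without GCN5+/- A1, over a range of adjusted p from 0.0200 to 0.394. The duplicates of GCN5+/- line A differed by -0.56 at this probe set, nearly as much as the genotypes.

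The next members by p were in the groups that also differed between lines. Hoxc8 read 12.24, 12.33 and 11.15 in GCN5-/- arrays A1, A2 and B, against 12.72, 12.95 and 11.27 in GCN5+/- arrays (-0.41 ± 0.10, SE; limma adjusted p = 0.0634). In line A alone its difference was -0.55 ± 0.09 (limma adjusted p = 0.0117 in the fit with the product term), and in line B -0.12 ± 0.13. Hoxa9 1455626_at read 10.25, 10.29 and 5.59 in GCN5-/- arrays, against 10.63, 10.55 and 6.09 in GCN5+/- arrays (-0.38 ± 0.10; limma adjusted p = 0.0699). It was called with the level filter (adjusted p = 0.0481).

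Hoxc5 1450832_at read 9.08, 9.27 and 6.75 in GCN5-/- arrays A1, A2 and B, against 9.39, 9.81 and 7.52 in GCN5+/- arrays (-0.54 ± 0.14, SE; limma adjusted p = 0.0729; 0.0372 with the replicate block). The second Hoxc5 probe set, 1439885_at, gave -0.33 ± 0.09 (limma adjusted p = 0.0960), and the third, 1456301_at, -0.15 ± 0.12. All 3 fitted values are below 0, and none passed the threshold in the fit with line.

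On the other side no Hox probe set was called higher. The smallest p belonged to Hoxd3, of the first neck vertebrae, with 5.45, 5.37 and 5.60 in GCN5-/- arrays, against 5.17, 5.17 and 5.29 in GCN5+/- arrays (0.26 ± 0.08, SE; limma adjusted p = 0.126). All GCN5-/- arrays lay above all GCN5+/- arrays, which held for 4 Hox probe sets and 6.95% of all, but the signals are low. Hoxc13 (0.20 ± 0.11), Hoxd13 1422239_at (0.18 ± 0.10), Hoxa13 (0.11 ± 0.09), Hoxb4 1451761_at (0.11 ± 0.10) and Hoxd12 (0.10 ± 0.10) followed, with limma adjusted p-values from 0.411 to 0.673. For the 47 probe sets not called, the 95% intervals reached from -0.90 to 0.44, so the arrays leave room for differences of up to 0.90 at single members.

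The genotype difference was also compared between the lines. No Hox probe set was called for the interaction by limma (0 of 48, with 0.06% of all probe sets called), and 3 (6.25%) had an unadjusted p under 0.05, against 6.33% of all probe sets. These 3 are given as values and are no result about Hox genes. Hoxa5 1448926_at differed between genotypes by 0.22 in line B and -0.32 in line A (interaction 0.54 ± 0.16, SE; limma adjusted p = 0.501). Hoxc8 had an interaction of 0.43 ± 0.16 (limma adjusted p = 0.676), and Hoxc10 one of -0.73 ± 0.28 (limma adjusted p = 0.713), from -0.72 in line B and 0.01 in line A. Its spread comes from the line A duplicates alone (2 residual degrees of freedom).

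No probe set of 4 lists of genes that act with or on Hox genes was called between genotypes, where 4.47% of all probe sets were called and 17.5% had an unadjusted p under 0.05. Of 20 TALE cofactor probe sets 0 passed, by limma, and 8 had an unadjusted p under 0.05; 18 of the 20 fitted values were below 0, and the median was -0.21 against 0.00 over all probe sets. Meis1 was nearest to the threshold, with -0.45 ± 0.11 (SE; limma adjusted p = 0.0626) at 1443260_at and -0.43 ± 0.11 (limma adjusted p = 0.0684) at 1450992_a_at. Of Polycomb probe sets 0 of 52 passed (4 at an unadjusted p under 0.05, median 0.01), of Trithorax and MLL 0 of 24 (5 unadjusted, median -0.11) and of genes upstream of Hox 0 of 19 (1 unadjusted, median -0.03). Crabp2 was that 1, with 8.99 to 9.66 in GCN5-/- arrays, against 7.67, 7.78 and 9.56 in GCN5+/- arrays A1, A2 and B (0.88 ± 0.21; limma adjusted p = 0.0523).

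For line A in the fit with the product term, 4.97% of all probe sets were called between genotypes. There 2 TALE cofactor probe sets were lower, Pbx3 1447640_s_at (-0.48 ± 0.10, SE; limma adjusted p = 0.0284) and Meis1 1450992_a_at (-0.54 ± 0.12; limma adjusted p = 0.0359). Crabp2 was higher there (1.27 ± 0.13; limma adjusted p = 0.000988), with 0.10 ± 0.18 in line B and an interaction that was not called (-1.17 ± 0.22; limma adjusted p = 0.148).

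Of the cluster neighbours 1 of 25 probe sets was called, Snx10, higher in GCN5-/- cells (0.32 ± 0.07, SE; limma adjusted p = 0.0454), where 2.24% of all were higher. Of the fibroblast marker probe sets 7 of 21 were lower in GCN5-/- cells, where 2.23% of all probe sets were lower, with Col1a1 at -0.35 ± 0.03 (limma adjusted p = 0.000946), and 0 were higher. The log2 of the list's summed signal was 17.49 to 17.55 in GCN5-/- arrays and 17.59 to 17.80 in GCN5+/- arrays. Of the leukocyte markers Cd53 was higher in GCN5-/- cells (0.85 ± 0.09; limma adjusted p = 0.00169), with log2 sums of 10.06 to 10.82 in GCN5-/- and 9.43 to 10.06 in GCN5+/- arrays. Their part in the Hox differences was not tested.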

How the data were processed

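Each value is the log2 signal of 1 probe set on 1 array, as the authors deposited it; that the scale is log2 was read from the values. The submitters' processing notes name MAS5 (6 samples) and Partek (1 sample) without their roles. How the arrays were normalized, background-corrected or filtered is not given in the sources used. Array medians nearly coincide, so a change shared by most genes would not show. Of 45101 probe sets, 64 controls were left out. Symbols came from the platform annotation and were updated by Entrez identifier through the RefSeq gene table of GRCm38.p6 (34741 of 34945 single-symbol probe sets matched).

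Tests used R 4.3.3 and limma 3.58.1 (lmFit, eBayes with a variance trend) on all 45037 probe sets with no level filter: genotype and cell line in 1 fit, and their product in another, with Benjamini-Hochberg adjustment and a threshold of 0.05. The fits were also run on simulated arrays whose noise was independent between arrays. That run cannot speak to arrays that deviate together, as same-named arrays did here. The members, lists and named genes were chosen with earlier results of these data known. Named were every called Hox probe set, the 6 of smallest genotype p per direction, the Kat2a probe sets and up to 4 called members per list; Kat2b, Hoxa2, Hoxb4, Hoxb6, Hoxc4, Hoxd9, Hoxd10 and uncalled list members were chosen after their values were seen. All 5 gene lists on Hox partners and 6 marker lists were matched by symbol. Alternatives were a level filter at the 40th percentile, quantile normalization, no variance trend, other treatments of line, averaged duplicates, line A alone, a replicate block and leaving out each array. Deviations from group means correlated at 0.637, 0.657 and 0.804 for same-named arrays A1, A2 and B, and at 0.348 and 0.430 for the crossed line A arrays (GCN5-/- A1 with GCN5+/- A2, and GCN5-/- A2 with GCN5+/- A1), so same-named arrays deviated together beyond their shared line.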

Additional observations from a re-analysis of the deposited data

How the results depend on the processing

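The genotype count depended on the processing. The line count depended little on it where both line B arrays were kept, and lost calls when either was left out. Against 1 lower Hox probe set as reported, there were 3 of 28 with the level filter and 3 with the replicate block. There were 2 with quantile normalization and 2 in line A alone. Over all probe sets 4.47% were called in either direction as reported, and in these settings 8.51%, 5.09%, 4.26% and 4.86%. The Hox count was 0 with no line term, line taken as random, and the line A arrays averaged. In these 0.00666%, 0.446% and 0.91% of all probe sets were called. Leaving out GCN5-/- A1, GCN5-/- A2 or GCN5+/- A2 gave 0, where 2.07%, 1.22% and 2.09% of all probe sets were called. Leaving out GCN5+/- A1 gave 2 (1.61% of all). Leaving out GCN5-/- B or GCN5+/- B also gave 2 (4.94% and 4.92% of all). Each of these last fits leaves the same genotype contrast as line A alone. No variance trend left the count at 1 (3.16% of all). The replicate block adds the calls of Hoxb9 and Hoxc5 1450832_at to that of Hoxa7. The cause of these changes was not tested, beyond the fewer probe sets adjusted over with the filter and the fewer arrays when some are left out. Higher genotype calls and interaction calls stayed at 0 in every setting run.

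Of the 14 lower line calls, 14 were found when any 1 line A array was left out (10.7% to 12% of all probe sets called). There were 13 with the level filter (23.1% of all), which removes Hoxa4 1420226_x_at, and 13 with averaged duplicates (10.4%). The main fit called 14.1% of all. Leaving out a line B array leaves the line contrast within 1 genotype, with 1 line B array. Hoxa5 1448926_at then differed by -0.42 within GCN5-/- cells and -0.95 within GCN5+/- cells, and Hoxc8 by -1.14 and -1.56. The 2 higher line calls became 1 with the level filter, which removes Hoxc10. Of the 16 probe sets called between lines, Hoxa5 1443803_x_at lost the call with averaged duplicates (limma adjusted p = 0.0602). The others kept it in every refit with both line B arrays that tested them. Without one or the other line B array, Hoxa3 1427433_s_at, Hoxa4 1420226_x_at and both of Hoxa5 lost the call. The line difference of these 16 kept its direction in all settings run (0 reversed). So did the genotype difference of the 6 Hox probe sets of smallest genotype p per direction. Other named Hox probe sets were not followed through the settings. The interaction could not be fitted without a line B array. Depth does not apply to arrays, whose number limits the precision, and probe sets near the background compress differences.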
